A study of Homo sapiens with 9 samples.

Results

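The comparison of TGF-β + uridine with control cells asks what of the activated state of a stellate cell is measured when uridine is given on top of TGF-β. It was drawn from a table of read counts by taking the 3 libraries of the TGF-β + uridine group and the 3 libraries of the control group, 6 of the 9 libraries of the series. Of the 20777 genes in the table, 13384 had enough reads to be tested. LX-2, the cell in all 9 libraries, is an immortalised human hepatic stellate line, and it was grown in medium with serum. The control group carries neither a treatment nor a day in the labels, the TGF-β group received TGF-β and is labelled day 1, and the TGF-β + uridine group received both agents and is also labelled day 1. By the study's methods, TGF-β came first (25 ng/ml, 12 h), and uridine, a pyrimidine nucleoside, followed in fresh medium. No uridine dose is named there for the sequenced cells, and all libraries come from 1 cell line. No library of cells given uridine alone was analysed here, so the parts of TGF-β and of uridine in a difference from control cannot be told apart. With no day given for the control cells, time in culture and the change of medium cannot be told apart from treatment either. Values of the TGF-β group are therefore set beside it.

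Hepatic stellate cells of a healthy liver store retinoids in lipid droplets. Activated by TGF-β and other signals, they turn into myofibroblasts. These lose the droplets, build smooth-muscle type contractile fibres and secrete collagen and other matrix. TGF-β binds a pair of receptor kinases, which phosphorylate SMAD proteins. These enter the nucleus and switch on matrix genes together with inhibitors of the pathway itself.

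Each library held between 40539751 and 41467124 reads counted on genes, and the groups overlapped in depth. Control replicate 1 stood apart from the other libraries. It had the lowest normalization factor (0.820, against 0.930 to 1.16 in the others) and the highest share of mitochondrial transcripts (16.5%, against 11.1% to 13.6%). Its slope of log2 CPM on the GC content of the gene was also the highest. As a difference from the mean slope of the 9 libraries it was 5.65, against -4.10 to 2.28. Control replicate 3 lay at the other end, with the highest factor (1.16), the lowest mitochondrial share (11.1%) and the lowest slope (-4.10). The control libraries thus spanned the whole range of the 9 libraries in these measures. The cell label was checked against markers. PDGFRB (at least 450 reads per library), THY1 (at least 9510), VIM, ACTA2 and COL1A1 were present in all libraries. Other stellate markers were scarce or absent. PDGFRA, LRAT and HGF were not listed. LUM had 0 to 17 reads, NGFR 8 to 22, DCN 14 to 84, RGS5 16 to 45 and COL3A1 17 to 102. COL1A2 had 0 reads in 8 libraries and 1 read in the other. RELN and GFAP, markers of quiescent stellate cells, had at most 4 reads. The epithelial keratin gene KRT7 had 65298 to 128005 reads per library and CLDN4, a claudin, 492 to 1741. EPCAM, another epithelial marker, had at most 5, KRT19 36 to 66 and CDH1 4 to 36. Of the 6 hepatocyte markers listed none was tested, and their highest count in any library was 12. Nothing in the labels says whether the 3 libraries of a group came from separate cultures, so p-values measure only the spread between these libraries, which may be technical.

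After TGF-β + uridine, 387 genes were higher and 327 were lower than in the control group (edgeR's quasi-likelihood test, adjusted p under 0.05), which is 2.89% and 2.44% of the genes tested and 5.33% together. A log2 fold change of at least 1 in size was reached by 247 of the higher and 175 of the lower genes. The median log2 fold change of all tested genes was -0.01. The 3 libraries of one group lay entirely above or below those of the other for all 714 genes called, and for 19.7% of the tested genes (10.5% above and 9.20% below). An exact permutation test of 3 libraries against 3 cannot give a p below 0.1, and p was 0.1 for every such gene. For the TGF-β group against the same control libraries, 324 genes were higher (2.42%) and 129 were lower (0.964%), 3.38% together. These 453 calls became 1085 without control replicate 1 and 218 without TGF-β replicate 2, with 36 to 376 of them lower over the libraries left out. The count in TGF-β + uridine against control rested on the libraries in the model. It rose to 2413 genes without control replicate 1 and fell to 304 without control replicate 2. It was 322, 366 and 342 without TGF-β + uridine replicates 1, 2 and 3, and 450, 425 and 431 without TGF-β replicates 1, 2 and 3.

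**Figure D1:**
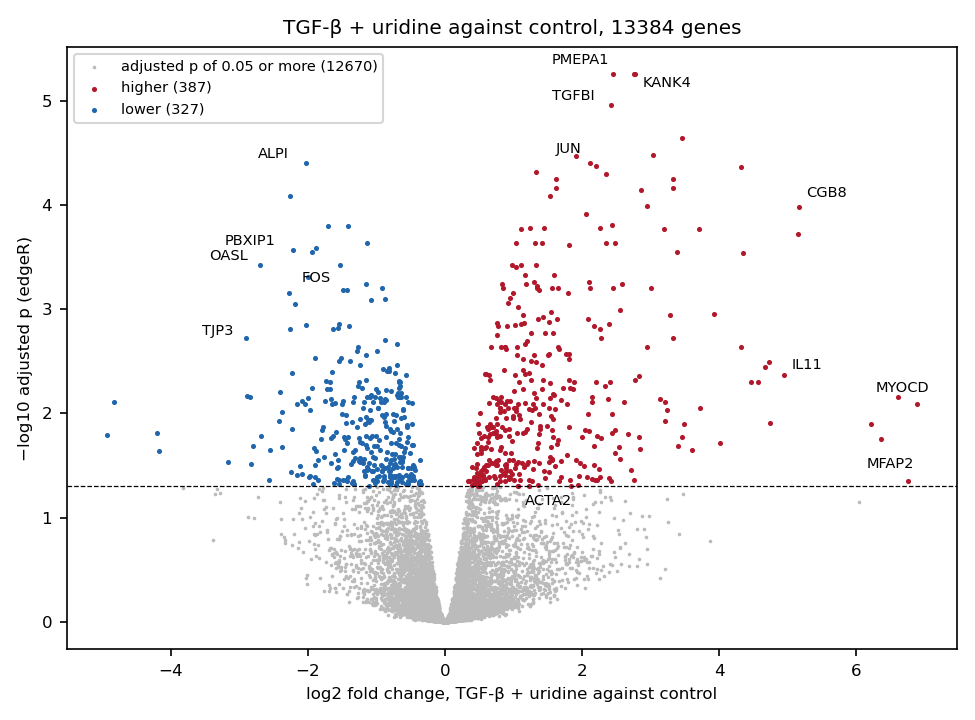
Log2 fold change of TGF-β + uridine against control (x axis) and -log10 of edgeR's adjusted p (y axis) for the 13384 tested genes, 1 point per gene, with the adjusted p of 0.05 as a dashed line. The 387 higher genes (red) include PMEPA1 and TGFBI near the top, the 327 lower genes (blue) include ALPI, OASL and FOS, and ACTA2 lies on the line.

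**Figure D2:**
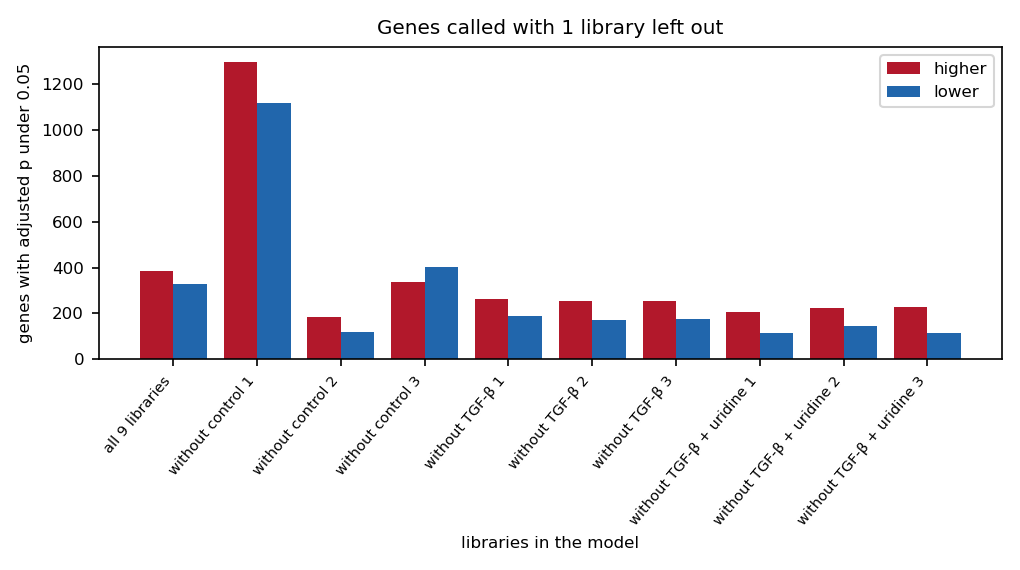
Number of genes with an adjusted p under 0.05 in TGF-β + uridine against control (y axis, bars for higher and lower genes) in the model of all 9 libraries and with 1 library left out (x axis). The bars without control replicate 1 are the tallest (1297 higher and 1116 lower), and those without control replicate 2 are the shortest for the higher genes (184).

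PMEPA1 and TGFBI, targets of TGF-β, were higher than in the control group. PMEPA1 encodes a membrane protein that dampens SMAD signalling and lies on chromosome 20 (57648392 to 57711536, GENCODE v29 on GRCh38). It was at 40.1, 36.1 and 41.1 CPM (reads per gene scaled to a common library size) in the control libraries and at 223, 217 and 202 CPM in the TGF-β + uridine libraries, with 230 to 239 CPM in the TGF-β group. The groups did not overlap, and the level was 5.48-fold that of the control group (log2 fold change 2.45 ± 0.09 SE, edgeR adjusted p = 5.58e-06). TGFBI, a secreted matrix protein named for its induction by TGF-β, rose from 332, 302 and 303 CPM to 1670, 1784 and 1546 CPM (2.42 ± 0.11, edgeR adjusted p = 1.11e-05), beside 2.84. For both genes each of the 6 libraries lay on its own side, and the call was kept without each of the 9 libraries in turn. Directly against the TGF-β group TGFBI differed by -0.42 ± 0.10 on the log2 scale. It did not pass the test in the model of all 9 libraries (edgeR adjusted p = 0.26), and without control replicate 1 it did (0.0301).

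Over the list of TGF-β response and feedback genes, 11 of 42 tested members were higher (26.2%, against 2.89% of all tested genes) and 3 were lower (7.14%, against 2.44%). The median log2 fold change was 0.23, against 0.39 in the TGF-β group. The number higher was 7 without control replicate 2 or TGF-β + uridine replicate 3 and 15 without control replicate 1. The number lower was 5 without control replicate 1 and 1 without any other single library. CDKN2B, an inhibitor of the cell cycle kinases CDK4 and CDK6, was at 9.86, 12.1 and 14.6 CPM in the control group and at 35.3, 35.6 and 39.5 CPM with TGF-β + uridine (log2 fold change 1.59 ± 0.15, edgeR adjusted p = 0.000467), with 60.3 to 61.4 CPM in the TGF-β group. FSTL3, a secreted binder of activins, rose with a log2 fold change of 1.51, and BHLHE40, a transcriptional repressor, with 0.84. IL11, a cytokine of fibroblasts with a pro-fibrotic action, had 0, 13 and 15 reads in the control libraries and 254, 361 and 226 reads with TGF-β + uridine (log2 fold change 4.95 ± 0.69, edgeR adjusted p = 0.00426), beside 213, 266 and 258 reads in the TGF-β group. SMAD7, the inhibitory SMAD of the pathway, rose from 3.79, 5.05 and 4.89 CPM to 9.51, 7.92 and 9.67 CPM (0.98 ± 0.19, edgeR adjusted p = 0.0185), and lost that call without control replicate 2 or TGF-β + uridine replicate 1 or 3 (edgeR adjusted p up to 0.0914).

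**Figure D3:**
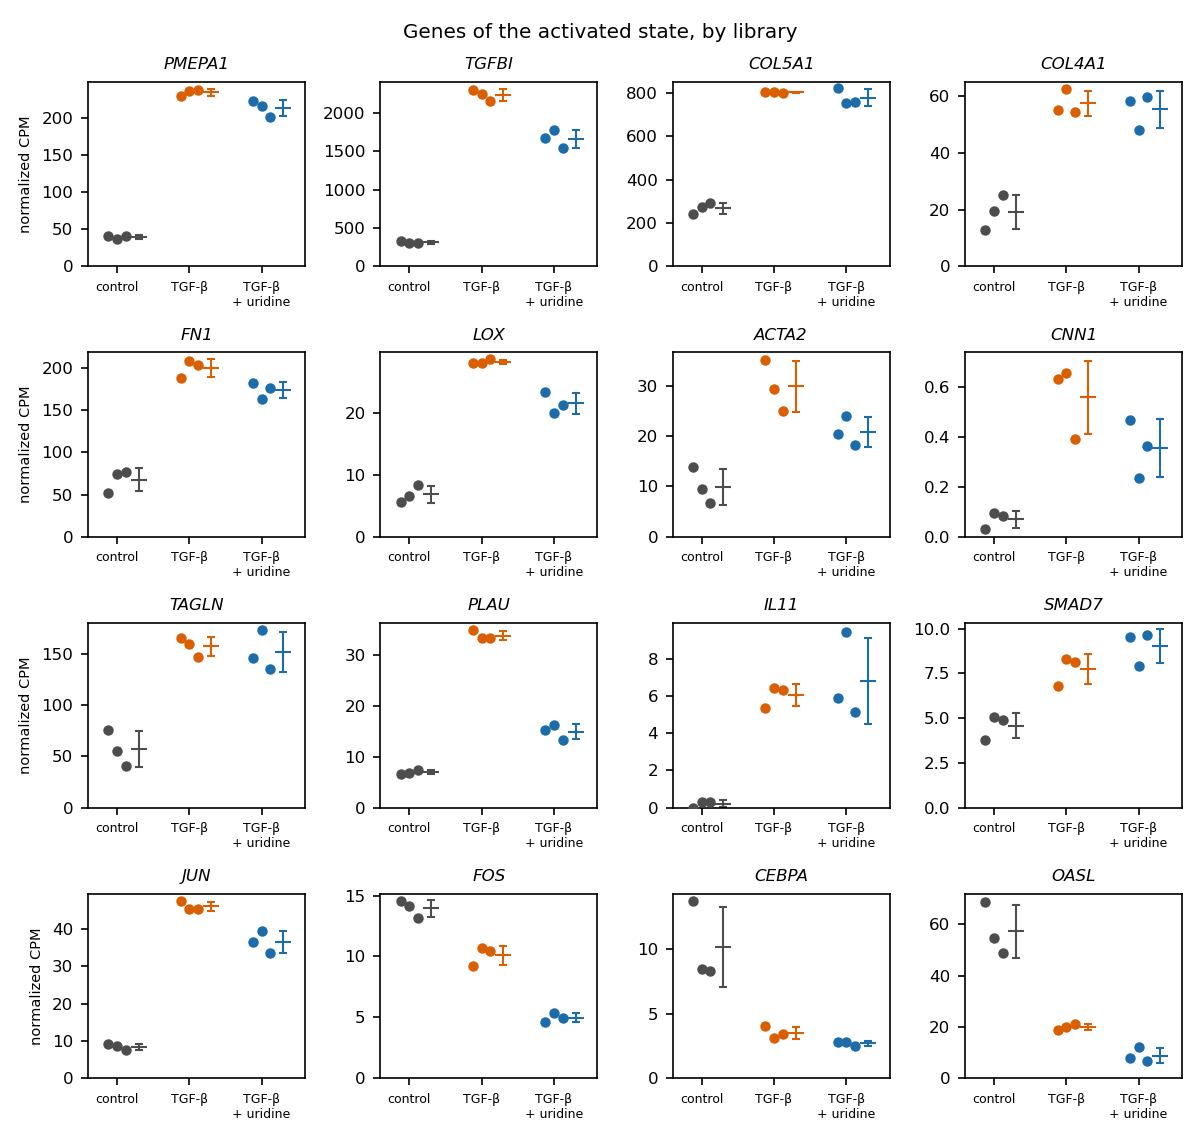
Normalized CPM (y axis, from 0) of 16 genes in the 3 control, 3 TGF-β and 3 TGF-β + uridine libraries (x axis), with points for libraries and bars for the mean ± SD. PMEPA1, TGFBI, COL5A1, FN1, LOX, PLAU and ACTA2 lie above control in both treated groups. For PMEPA1, FN1, LOX, PLAU and ACTA2, among others, all TGF-β + uridine libraries lie below the TGF-β libraries. The same holds for 1715 of the 13384 tested genes. Of the genes shown, only PLAU passed edgeR's test against the TGF-β group in the model of all 9 libraries. FOS and OASL are lowest with TGF-β + uridine.

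Of the smooth-muscle type contractile genes, 8 of 27 tested were higher than in the control group (29.6%, against 2.89% of all tested genes). None was lower, against 2.44% of all tested genes (0 also with DESeq2 and with limma, 0 at an unadjusted p under 0.05, and 1 without control replicate 1). The median log2 fold change was 0.33, against 0.49 for TGF-β alone. The number higher was 5 when any one library other than control replicate 1 was left out, and 17 without that library. TAGLN, which encodes the actin-binding protein transgelin, was at 76.1, 55.1 and 40.8 CPM in the control group and at 146, 174 and 136 CPM with TGF-β + uridine (log2 fold change 1.41 ± 0.21, edgeR adjusted p = 0.00578), beside 148 to 166 CPM in the TGF-β group. ACTC1, the cardiac α-actin, rose with a log2 fold change of 1.52, FHL2, a LIM-domain partner of transcription factors, with 0.91, and TPM1, a tropomyosin, with 0.66. All 4 calls were kept without each library in turn.

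ACTA2 encodes α-smooth muscle actin, the standard marker of an activated stellate cell (chromosome 10, 88935074 to 88991339, minus strand). Its control libraries were at 13.8, 9.45 and 6.69 CPM, its TGF-β + uridine libraries at 20.4, 24.0 and 18.1 CPM and its TGF-β libraries at 35.2, 29.4 and 24.97 CPM. In these libraries the 3 groups did not overlap, with TGF-β + uridine in the middle. Of the 13384 tested genes, 1715 had all TGF-β + uridine libraries below all TGF-β libraries, and 1709 had them above. Against control the level of ACTA2 was 2.09-fold (log2 fold change 1.06 ± 0.26, edgeR adjusted p = 0.0498), just inside the threshold. Without any one library other than control replicate 1 the call was lost (edgeR adjusted p up to 0.183, log2 fold change from 0.84 to 1.35). Against the TGF-β group it was lower by 0.52 ± 0.25 on the log2 scale and did not pass the test (edgeR adjusted p = 0.63, while the exact permutation p was 0.1). CNN1, the smooth-muscle protein calponin, was near the detection limit. It was at 0.0296, 0.0953 and 0.0839 CPM in the control group and 0.465, 0.235 and 0.361 CPM with TGF-β + uridine (log2 fold change 2.26 ± 0.52, edgeR adjusted p = 0.0411), and its call was kept without 1 of the 9 libraries only. MYOCD, the master coactivator of smooth-muscle genes, was named after its values were seen. It had 0 reads in every control library, 12, 18 and 14 reads with TGF-β + uridine and 12, 23 and 28 reads with TGF-β (edgeR adjusted p = 0.00822 against control).

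Serum response factor drives many contractile genes through a sequence known as the CArG box. Promoters of called contractile genes that hold the box are printed to show where it stands. The 250 bases before the start of the gene (RefSeq, GRCh38.p14) were read on both strands. A CArG box was found in 8 of the 23 tested contractile genes with a promoter in the table (34.8%), in 2 of the 6 called higher (33.3%), and in 1.14% of all 27305 promoters. The promoters of ACTA2, CNN1, TPM1 and PDLIM7, also called higher, held none in these 250 bases. The 2 promoters with a box, of ACTC1 (chr15:34795550-34795799, minus strand) and FHL2 (chr2:105438514-105438763, minus strand), are given 5′ to 3′ with the box in capitals, 109 and 101 bases before the start.
ACTC1: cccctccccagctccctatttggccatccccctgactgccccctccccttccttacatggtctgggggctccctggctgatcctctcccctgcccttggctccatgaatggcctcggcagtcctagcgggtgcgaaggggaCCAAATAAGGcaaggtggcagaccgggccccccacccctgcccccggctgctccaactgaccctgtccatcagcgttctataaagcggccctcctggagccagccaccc
FHL2: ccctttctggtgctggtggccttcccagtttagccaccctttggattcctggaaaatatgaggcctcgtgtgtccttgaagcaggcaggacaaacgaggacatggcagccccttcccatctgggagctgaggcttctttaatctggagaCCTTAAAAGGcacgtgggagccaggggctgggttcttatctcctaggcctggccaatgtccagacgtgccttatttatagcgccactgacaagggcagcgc
A match is a description of these letters, and the binding of the factor was not measured.

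Collagen chain genes were the list with the largest share of members higher than in the control group. Of 19 tested, 10 were higher (52.6%, against 2.89% of all tested genes). None was lower, against 2.44% of all tested genes (0 also with DESeq2 and limma, 0 at an unadjusted p under 0.05, and 1 without control replicate 1). The median log2 fold change was 0.94, against 0.68 in the TGF-β group, where 6 were higher. With a library left out 5 to 10 were higher, fewest without TGF-β + uridine replicate 1 or 3. COL5A1, a chain of the type V collagen that nucleates fibrils, rose from 242, 272 and 291 CPM to 825, 754 and 759 CPM (log2 fold change 1.54 ± 0.10, edgeR adjusted p = 8.17e-05), beside 801 to 807 CPM in the TGF-β group. COL4A1 and COL4A2, the chains of basement-membrane collagen, rose with log2 fold changes of 1.54 and 1.30, beside 1.59 and 1.26. COL7A1, the anchoring fibril collagen, was at 76.2, 78.6 and 88.0 CPM in the control group and at 201, 178 and 274 CPM with TGF-β + uridine (1.43 ± 0.16, edgeR adjusted p = 0.00119), beside 150 to 156 CPM with TGF-β. In these libraries it was highest in the TGF-β + uridine group, as was COL16A1 (log2 fold change 1.17 against control, beside 0.68). For 1709 of the 13384 tested genes all TGF-β + uridine libraries lay above all TGF-β libraries. Against the TGF-β group neither COL7A1 nor COL16A1 passed the test (edgeR adjusted p = 0.36 and 0.40). The fibrillar chains that the study measured were less firm. COL1A1 rose from 53.1, 43.7 and 41.5 CPM to 64.0, 64.8 and 69.8 CPM (0.52 ± 0.12, edgeR adjusted p = 0.0391), and COL3A1 from 0.504, 0.738 and 0.587 CPM to 2.19, 1.10 and 2.30 CPM (1.60 ± 0.35, edgeR adjusted p = 0.0319). Both lost the call without most single libraries (7 of 9 for COL3A1 and 8 of 9 for COL1A1, edgeR adjusted p up to 0.129 and 0.17). In the TGF-β group neither passed (edgeR adjusted p = 0.065 and 0.082).

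Among the other matrix glycoproteins and proteoglycans, 13 of 30 tested were higher (43.3%, against 2.89% of all tested genes). None was lower, against 2.44% of all tested genes (1 with DESeq2, 0 with limma, 1 at an unadjusted p under 0.05, and 1 without control replicate 1). The median log2 fold change was 0.60, against 0.70 for TGF-β. FN1, fibronectin, rose from 51.7, 74.8 and 76.5 CPM to 183, 163 and 176 CPM (log2 fold change 1.36 ± 0.15, edgeR adjusted p = 0.00124), beside 188 to 209 CPM in the TGF-β group. IGFBP7, a secreted binder of insulin-like growth factors, rose with a log2 fold change of 1.03, and CCN1, a matricellular protein, with 1.11. Beside them stood 1.03 and 1.57 for TGF-β. CCN2, the connective tissue growth factor and a hallmark of fibrosis, rose from 0.444, 1.02 and 1.53 CPM to 4.46, 3.82 and 4.25 CPM (2.04 ± 0.37, edgeR adjusted p = 0.0145), beside 6.77 to 7.07 CPM in the TGF-β group. That call was lost without control replicate 2 or TGF-β + uridine replicate 1 or 3 (edgeR adjusted p up to 0.073).

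Enzymes that process and crosslink collagen were called higher for 4 of 17 tested genes (23.5%, against 2.89% of all tested genes). None was called lower, against 2.44% of all tested genes (0 also with DESeq2, 1 with limma, and 1 at an unadjusted p under 0.05). Without control replicate 2 the number higher was 1. LOX, lysyl oxidase, which starts the crosslinking of collagen and elastin, was at 5.599, 6.67 and 8.31 CPM in the control group and at 23.4, 19.99 and 21.2 CPM with TGF-β + uridine (log2 fold change 1.65 ± 0.16, edgeR adjusted p = 0.00063), beside 28.1 to 28.6 CPM with TGF-β. TGM2, a transglutaminase, rose with a log2 fold change of 1.01, and its call was lost without control replicate 2 (edgeR adjusted p = 0.0553). Matrix proteases, the plasminogen system and their inhibitors were higher for 9 of 25 tested genes and lower for 2 (36% and 8%). All tested genes had 2.89% and 2.44%. With a library left out 5 to 11 were higher, fewest without control replicate 2, and the 2 calls of lower genes were lost without that library or any TGF-β or TGF-β + uridine library. MMP2, a gelatinase, rose from 53.4, 62.0 and 67.1 CPM to 179, 156 and 163 CPM (1.45 ± 0.11, edgeR adjusted p = 0.000167), beside 1.34 with TGF-β. ADAM19, a membrane-bound protease, rose with a log2 fold change of 2.94, beside 2.72, and SERPINE2, a serine protease inhibitor, with 1.62, beside 1.60. TIMP1, an inhibitor of metalloproteinases, was at 343, 223 and 178 CPM in the control group and at 224, 302 and 232 CPM with TGF-β + uridine. Its groups overlapped (log2 fold change 0.03 ± 0.23, edgeR adjusted p = 0.987), and the sign of the difference turned when some libraries were left out.

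Transcription factors of the mesenchymal transition were higher for 5 of 15 tested genes (33.3%, against 2.89% of all tested genes). None was lower, against 2.44% of all tested genes (0 also with DESeq2, limma and at an unadjusted p under 0.05, and 1 without control replicate 1). The number higher was 2 without any one library other than control replicate 1 or 3. FOXS1, a forkhead factor, rose from 0.148, 0.357 and 0.210 CPM to 3.49, 6.32 and 5.10 CPM (log2 fold change 4.35 ± 0.37, edgeR adjusted p = 0.000288), beside 4.53 with TGF-β. FOXC2 rose with 1.54, beside 1.43. SNAI2, the factor Slug, was called in the model of all libraries (1.45 ± 0.32, edgeR adjusted p = 0.0355) and in 2 of the 9 with a library left out. Growth factor and receptor genes were higher for 4 of 23 tested (17.4%, against 2.89% of all tested genes). Leaving out control replicate 1 gave 7, and leaving out control replicate 2, any one TGF-β library or TGF-β + uridine replicate 2 or 3 gave 2. PDGFRB, the receptor through which platelet-derived growth factor acts on stellate cells, rose from 13.3, 12.5 and 10.0 CPM to 25.9, 29.5 and 24.8 CPM (1.16 ± 0.14, edgeR adjusted p = 0.00214), and FGFR1 with a log2 fold change of 0.87. ITGA5, the fibronectin receptor subunit, was the 1 integrin gene of 12 tested that was called (8.33%, against 2.89% of all tested genes). It was at 496, 402 and 366 CPM in the control group and 853, 961 and 790 CPM with TGF-β + uridine (1.04 ± 0.13, edgeR adjusted p = 0.00277).

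**Figure D4:**
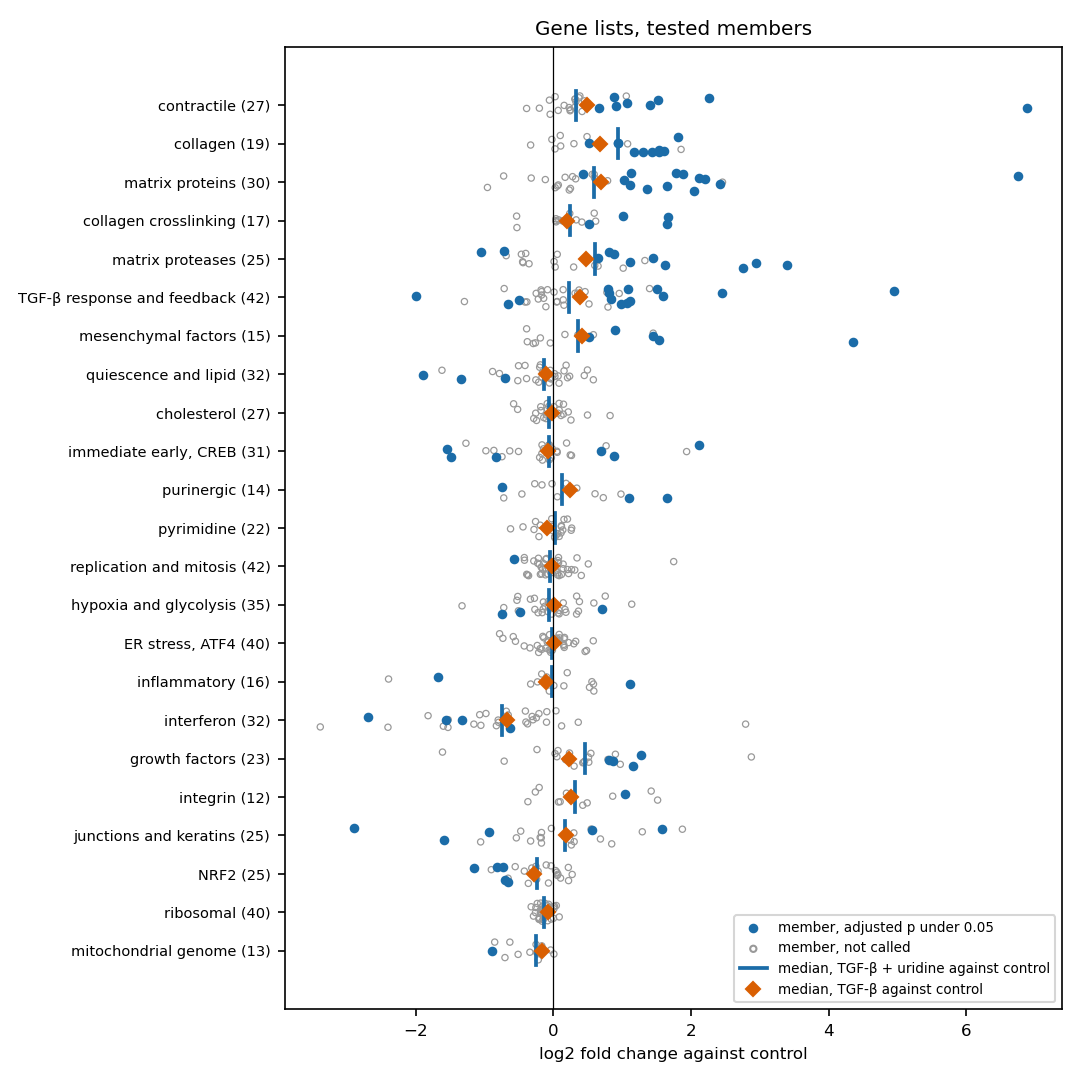
Log2 fold change of TGF-β + uridine against control (x axis) for the tested members of 23 gene lists (y axis, number tested in brackets), with filled points for members with an adjusted p under 0.05. The blue bar is the list's median and the orange diamond is its median for TGF-β against control. The medians of collagen (0.94) and matrix proteins (0.60) lie above 0 and that of interferon-stimulated genes (-0.74) below.

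Of the genes of quiescence, retinoid handling and lipid storage, 3 of 32 tested were lower with TGF-β + uridine (9.38%, against 2.44% of all tested genes). None was higher, against 2.89% of all tested genes (0 with DESeq2, 1 with limma, and 0 at an unadjusted p under 0.05). With a library left out 2 to 4 were lower. CEBPA, a transcription factor of fat cell differentiation, fell from 13.7, 8.43 and 8.33 CPM to 2.84, 2.82 and 2.51 CPM (log2 fold change -1.90 ± 0.25, edgeR adjusted p = 0.00294), beside -1.53 in the TGF-β group. PLIN4, a coat protein of lipid droplets, was at 19.4, 16.5 and 12.8 CPM in the control group, at 4.25, 3.58 and 2.87 CPM with TGF-β and at 6.70, 5.91 and 6.55 CPM with TGF-β + uridine. It fell by 1.34 ± 0.21 on the log2 scale against control (edgeR adjusted p = 0.00772). Its TGF-β + uridine libraries all lay above those of the TGF-β group, as for 1709 of the 13384 tested genes. The test against them was not passed (edgeR adjusted p = 0.28). CEBPD, a relative of CEBPA, fell by 0.71. That call was lost without control replicate 2 or any one of the TGF-β + uridine libraries (edgeR adjusted p up to 0.073). PPARG, the master regulator of fat cells, was at 20.6, 23.5 and 27.0 CPM in the control group and 21.7, 26.4 and 24.1 CPM with TGF-β + uridine. FASN, fatty acid synthase, was at 1283, 959 and 845 CPM in the control group and at 971, 1062 and 949 CPM with TGF-β + uridine. Both genes overlapped between the groups (edgeR adjusted p = 0.981 and 0.954), and the sign turned for both without control replicate 1. SREBF1, a regulator of lipid synthesis, was lower in all 3 libraries without passing the test (log2 fold change -0.41 ± 0.14, edgeR adjusted p = 0.153). CD36 and PLIN1 had at most 5 reads in any library and were not tested. None of 27 cholesterol genes was called (0 also with DESeq2, 4 with limma, and 4 at an unadjusted p under 0.05). Without control replicate 1 there were 2.

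The list of immediate early and CREB-responsive genes also holds genes of cyclic nucleotide signalling, such as PRKACA, PDE4D and CNGB1. Its members moved in both directions, with 3 of 31 tested higher and 3 lower (9.68% each). All tested genes had 2.89% and 2.44%. CNGB1 is 1 of the 3 lower genes. Without control replicate 2 or TGF-β + uridine replicate 1 the number higher was 1, and without control replicate 1 the number lower was 6. JUN and FOS encode the subunits of the AP-1 dimer. JUN rose from 9.12, 8.55 and 7.63 CPM to 36.5, 39.5 and 33.7 CPM (log2 fold change 2.12 ± 0.12, edgeR adjusted p = 3.96e-05), beside 45.5 to 47.5 CPM in the TGF-β group. FOS was at 14.5, 14.1 and 13.2 CPM in the control group, at 9.21, 10.7 and 10.4 CPM with TGF-β and at 4.63, 5.36 and 4.92 CPM with TGF-β + uridine. Its 3 groups did not overlap, and it fell by 1.49 ± 0.15 on the log2 scale against control (edgeR adjusted p = 0.000656), a 2.81-fold lower level. For 1715 of the 13384 tested genes all TGF-β + uridine libraries lay below all TGF-β libraries. TGF-β alone did not pass the test for FOS (log2 fold change -0.46, edgeR adjusted p = 0.16). Neither did TGF-β + uridine against TGF-β in the model of all libraries (-1.02 ± 0.15, edgeR adjusted p = 0.0992), and without control replicate 1 it did. CNGB1, a cyclic nucleotide-gated channel subunit, fell from 7.35, 9.22 and 8.77 CPM to 3.51, 2.46 and 2.73 CPM (-1.54 ± 0.20, edgeR adjusted p = 0.00312), beside -0.49 with TGF-β. DUSP1, a phosphatase that switches off MAP kinases, fell by 0.84, beside -0.43. For JUN, FOS, CNGB1 and DUSP1 the call against control was kept without each library in turn.

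The receptor that the study followed, ADORA1, an adenosine receptor coupled to inhibitory G proteins, was at 5.95, 3.76 and 2.999 CPM in the control group and at 7.72, 7.61 and 5.67 CPM with TGF-β + uridine. The groups overlapped and the test was not passed (log2 fold change 0.73 ± 0.27, edgeR adjusted p = 0.20), and it was passed without control replicate 1. The list of adenosine and pyrimidine nucleotide receptors and adenosine handling also holds the carbonic anhydrase genes CA9 and CA12. Of its 14 tested members 2 were higher (14.3%, against 2.89% of all tested genes) and 1 was lower (7.14%, against 2.44%). The lower one was CA9, so no receptor or adenosine handling gene was called lower. Without control replicate 1 there were 5 and 1. P2RY2, a receptor for UTP and ATP, rose from 7.02, 4.19 and 4.43 CPM to 15.7, 16.6 and 16.8 CPM (1.65 ± 0.20, edgeR adjusted p = 0.00228), beside 1.64 with TGF-β. NT5E, the enzyme that makes adenosine from AMP outside the cell, and CA9 were called in the model of all libraries but in only 2 of the 9 with a library left out. Of 22 tested genes of uridine salvage, breakdown and pyrimidine synthesis, none was called (0 also with DESeq2, 2 with limma, and 1 at an unadjusted p under 0.05). Without control replicate 1 there were 6. UPP1, the uridine phosphorylase that breaks uridine down, was at 91.2, 55.2 and 42.7 CPM in the control group and at 48.0, 63.1 and 46.8 CPM with TGF-β + uridine (edgeR adjusted p = 0.744), and its groups overlapped.

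Interferon-stimulated genes were the list with the lowest median, -0.74 over 32 tested genes against -0.67 in the TGF-β group. It was between -0.79 and -0.60 without each library in turn. Of the 32, 4 were called lower (12.5%, against 2.44% of all tested genes) and none was called higher (0 also with DESeq2, limma and at an unadjusted p under 0.05). In 13 all TGF-β + uridine libraries lay below all control libraries, as they did for 9.20% of tested genes. The number called lower was 2 without control replicate 2, without any TGF-β library or without any TGF-β + uridine library, and 11 without control replicate 1. OASL, an antiviral protein related to oligoadenylate synthetases, was at 68.8, 54.6 and 48.7 CPM in the control group, at 18.9, 19.9 and 21.1 CPM with TGF-β and at 7.81, 12.2 and 6.60 CPM with TGF-β + uridine. It fell by 2.69 ± 0.24 on the log2 scale (edgeR adjusted p = 0.00038), and against the TGF-β group its difference of -1.17 ± 0.23 did not pass (edgeR adjusted p = 0.17). IFITM1, which blocks the entry of viruses, fell from 144, 110 and 84.96 CPM to 37.6, 42.3 and 35.4 CPM (-1.56 ± 0.18, edgeR adjusted p = 0.00153). ISG15, a ubiquitin-like modifier, and BST2, which tethers virus particles to the cell, were lower in the model of all libraries (edgeR adjusted p = 0.0481 and 0.0414) and in 2 of the 9 with a library left out.

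Interferon-stimulated genes carry response elements that bind interferon regulatory and STAT factors. Their core was searched as a pair of GAAA tetramers with any 2 bases between them, on both strands of the 250 bases before the start (RefSeq, GRCh38.p14). It was present in 16 of the 24 tested interferon-stimulated genes with a promoter in the table (66.7%), in all 3 of those called lower, and in 3.07% of all 27305 promoters. The promoters of ISG15 (chr1:1013247-1013496, plus strand), IFITM1 (chr11:313790-314039, plus strand) and BST2 (chr19:17405631-17405880, minus strand) are given 5′ to 3′ with the matches in capitals. ISG15 and BST2 hold 2 overlapping matches each and IFITM1 holds 1.
ISG15: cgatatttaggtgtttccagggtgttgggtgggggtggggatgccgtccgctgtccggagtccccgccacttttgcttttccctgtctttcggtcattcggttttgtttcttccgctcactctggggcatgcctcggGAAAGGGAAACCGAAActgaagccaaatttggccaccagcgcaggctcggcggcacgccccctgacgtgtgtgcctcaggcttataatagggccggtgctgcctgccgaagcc
IFITM1: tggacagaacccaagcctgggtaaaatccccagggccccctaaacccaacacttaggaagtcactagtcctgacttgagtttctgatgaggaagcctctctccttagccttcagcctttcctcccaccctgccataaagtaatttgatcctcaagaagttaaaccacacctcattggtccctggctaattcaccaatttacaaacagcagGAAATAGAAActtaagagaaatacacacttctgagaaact
BST2: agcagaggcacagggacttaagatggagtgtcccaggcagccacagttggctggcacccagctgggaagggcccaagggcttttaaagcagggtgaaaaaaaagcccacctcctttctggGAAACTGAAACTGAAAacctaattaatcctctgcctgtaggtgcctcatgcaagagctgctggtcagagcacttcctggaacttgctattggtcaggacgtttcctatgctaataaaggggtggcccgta
The elements are a description of the sequence, and neither interferon signalling nor the binding of a factor was measured.

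Other lists held fewer calls. NRF2 antioxidant genes were lower for 5 of 25 tested (20%, against 2.44% of all tested genes). None was higher, against 2.89% of all tested genes (0 with DESeq2, 1 with limma, and 1 at an unadjusted p under 0.05). Leaving out control replicate 1 gave 8 lower and 3 higher genes, and leaving out control replicate 2, TGF-β replicate 2 or any TGF-β + uridine library gave 2 lower. AKR1C2, an aldo-keto reductase, fell from 77.3, 66.7 and 65.9 CPM to 31.7, 30.4 and 32.4 CPM (log2 fold change -1.15 ± 0.11, edgeR adjusted p = 0.000577), beside -0.71 with TGF-β. AKR1C3 fell by 0.71, beside -0.36. The AKR1C genes are close copies of one another, so that reads could be split between them and their single values are uncertain. The list of junction and keratin genes, which also holds VIM, was lower for 3 of 25 tested (12%) and higher for 2 (8%). All tested genes had 2.44% and 2.89%. With a library left out 2 to 5 were lower and 1 to 6 higher. TJP3, a tight-junction scaffold, fell from 6.81, 4.24 and 3.86 CPM to 0.744, 0.706 and 0.542 CPM (-2.90 ± 0.35, edgeR adjusted p = 0.0019). JUP, plakoglobin, fell by 0.93, and CLDN4, a claudin, rose with a log2 fold change of 1.57. The other gene called higher was VIM, vimentin, a stellate cell marker and no junction or keratin gene (0.56, edgeR adjusted p = 0.0163). KRT7, the epithelial keratin that was abundant in all libraries, was at 2606, 1704 and 1369 CPM in the control group and at 2163, 2788 and 2050 CPM with TGF-β + uridine. The groups overlapped (edgeR adjusted p = 0.616). CCL5, a chemokine for leukocytes, fell from 8.41, 7.02 and 5.62 CPM to 1.74, 2.51 and 2.33 CPM (-1.68 ± 0.25, edgeR adjusted p = 0.00578). It was the 1 inflammatory gene of 16 called lower (6.25%, against 2.44% of all tested genes). LIF, a cytokine, was the 1 called higher (6.25%, against 2.89%, log2 fold change 1.12, edgeR adjusted p = 0.0298). That call was lost without any one library other than control replicate 1. Hypoxia and glycolysis genes were higher for 1 of 35 tested (2.86%) and lower for 2 (5.71%), beside 2.89% and 2.44% of all tested genes, so the share higher was that of the background. Without control replicate 1 there were 8 and 7. PFKFB3, which makes an activator of glycolysis, rose with a log2 fold change of 0.70, beside 0.61 with TGF-β. The 2 lower genes were CA9 and NDRG1, whose calls were lost without control replicate 2 or any one treated library. Replication and mitosis genes were called for 1 of 42 tested (E2F2, lower). That is 2.38%, beside 2.44% of all tested genes called lower, so the share was that of the background. The call was lost without control replicate 2 or any one treated library. ER stress genes were called for 0 of 40 (1 with DESeq2, 3 with limma, and 4 at an unadjusted p under 0.05). Ribosomal protein genes were called for 0 of 40 (1 with DESeq2, 1 with limma, and 1 at an unadjusted p under 0.05). Without control replicate 1 the lists of replication, ER stress and ribosomal genes held 8, 5 and 3 calls. Of the 13 respiratory chain genes of the mitochondrial genome, ND6 was called lower (7.69%, against 2.44% of all tested genes). It fell from 1474, 1260 and 1084 CPM to 596, 729 and 732 CPM (-0.89 ± 0.14, edgeR adjusted p = 0.00786), beside -0.17 with TGF-β. ND6 lies on the other strand next to ND5, and whether the counting told the strands apart is not given in the sources used here. In bulk RNA, fewer cells of a type and less RNA per cell cannot be told apart.

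The 12 largest increases among well-measured genes (mean log2 CPM of at least 1, groups not overlapping) ran from 2.94 to 5.17 on the log2 scale. CGB8, a gene for the β subunit of chorionic gonadotropin (chromosome 19, 49047638 to 49049106), had 13, 6 and 9 reads in the control libraries and 314, 400 and 342 reads with TGF-β + uridine (log2 fold change 5.17 ± 0.36, edgeR adjusted p = 0.000105), beside 387, 352 and 351 with TGF-β. Its copies are near-identical, so that reads may be shared between them. The sum over the 6 listed copies was 20, 8 and 9 reads in the control libraries and 372, 470 and 411 with TGF-β + uridine. The keratin genes KRT6A and KRT14 of stratified epithelium rose with log2 fold changes of 3.70 and 3.01, and SLCO2A1, a prostaglandin transporter, with 3.196. MYO7B, an unconventional myosin of the brush border, rose with 3.39 and MYOM3, a myomesin of muscle, with 3.04. LOC105374715 (4.31), GPR17 (3.33), CLDN14-AS1 (3.32), KCNJ18 (3.32) and ADAM19 were also among the 12. KCNJ18, a potassium channel gene, has near-identical relatives and its value is uncertain. CLDN14-AS1 is an antisense gene, and a strand setting for the counting is not given in the sources used here. All 12 lay above control in the TGF-β group as well, with log2 fold changes of 2.72 to 5.24.

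The 12 largest decreases ran from -1.96 to -2.69. Beside OASL they were SECTM1 (-2.28), WNT6, a Wnt ligand (-2.27), ALPP and ALPI, the placental and intestinal alkaline phosphatases (-2.26 and -2.03), DTNA, a dystrobrevin (-2.23), PBXIP1 (-2.21), AATK (-2.19), C11orf86 (-2.03), MYLK3, a myosin light chain kinase (-2.001), FOXO4, a forkhead factor (-1.998), and YPEL3 (-1.96). ALPI fell from 111, 98.5 and 95.5 CPM to 24.6, 23.4 and 26.5 CPM (edgeR adjusted p = 3.96e-05), with 39.3 to 47.2 CPM in the TGF-β group. ALPI and ALPP are close copies whose reads may be shared. FOXO4 fell from 11.1, 8.48 and 9.61 CPM to 2.53, 2.33 and 2.44 CPM (edgeR adjusted p = 0.000489), with 4.16 to 4.88 CPM in the TGF-β group. YPEL3 was at 5.18, 3.98 and 2.77 CPM in the control group, at 2.97, 2.76 and 3.07 CPM with TGF-β and at 1.33, 1.05 and 0.678 CPM with TGF-β + uridine. It passed the test against control (edgeR adjusted p = 0.00923), and against the TGF-β group it did not (log2 fold change -1.53 ± 0.32, edgeR adjusted p = 0.22).

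**Figure D5:**
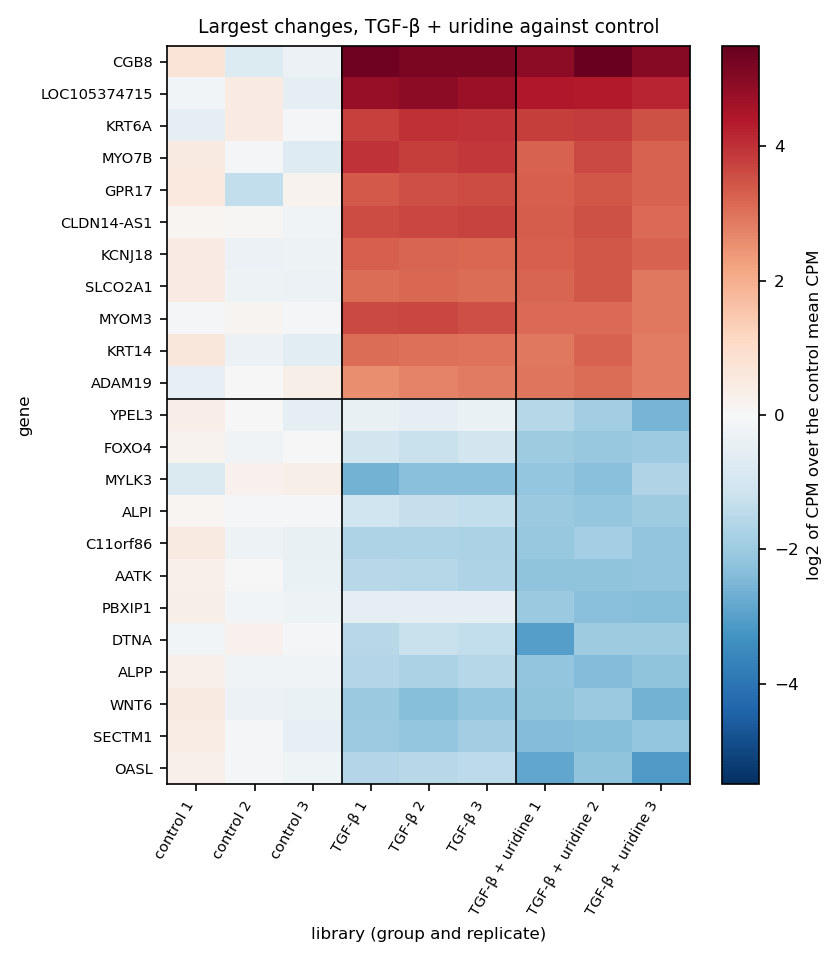
Log2 of each library's CPM over the mean control CPM (colour) for 11 of the 12 largest increases and the 12 largest decreases in TGF-β + uridine against control (y axis) in the 9 libraries (x axis, 3 per group). The 11 increases are red in the TGF-β libraries too (log2 fold changes of 2.72 to 5.24), whereas PBXIP1 and YPEL3 are pale in the TGF-β libraries and blue with TGF-β + uridine.

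Set directly against the TGF-β group, 6 of the 13384 tested genes passed (0.0448%), all lower, and none was higher (0 with edgeR, 97 with DESeq2, 259 with limma, and 623 at an unadjusted p under 0.05). The count of 6 was not stable. It was 239 with DESeq2 (142 lower), 317 with only these 2 groups in the model (176 lower), 271 without control replicate 1 (173 lower), 2554 with a covariate for GC content and 0 with the replicate block. These 6 calls were all kept without control replicate 1, whereas 4 were kept without control replicate 3 and none without any other single library. PBXIP1 was at 29.5, 21.6 and 19.7 CPM in the control group, at 16.8, 16.8 and 16.7 CPM with TGF-β and at 5.81, 4.83 and 4.61 CPM with TGF-β + uridine (log2 fold change -2.21 ± 0.19 against control, edgeR adjusted p = 0.000271). PLAU, the urokinase-type plasminogen activator, stood between the groups, at 6.69, 6.72 and 7.40 CPM in the control group, 33.3 to 34.9 CPM with TGF-β and 15.3, 16.2 and 13.4 CPM with TGF-β + uridine. It was 2.15-fold above control (1.11 ± 0.12, edgeR adjusted p = 0.00138) and differed by -1.18 ± 0.12 from the TGF-β group (edgeR adjusted p = 0.0205).

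AHNAK2, a very large scaffold protein of the membrane cytoskeleton, was the 1 gene of the 6 whose TGF-β + uridine libraries overlapped with control. It was at 319, 305 and 292 CPM in the control group, at 616 to 636 CPM with TGF-β and at 312, 301 and 326 CPM with TGF-β + uridine (log2 fold change against control 0.04 ± 0.08, edgeR adjusted p = 0.933). NDRG1, a stress-responsive gene induced by hypoxia, was at 169, 149 and 141 CPM in the control group, 205 to 218 CPM with TGF-β and 105, 113 and 109 CPM with TGF-β + uridine, and so lay below both (-0.49 ± 0.09 against control, edgeR adjusted p = 0.0201). GPRC5A, a receptor induced by retinoic acid, was at 140, 136 and 130 CPM in the control group and at 107, 109 and 96.4 CPM with TGF-β + uridine (-0.38 ± 0.09, edgeR adjusted p = 0.0466). SNHG32, a host gene of small nucleolar RNAs, was at 41.5, 40.6 and 41.5 CPM and at 27.9, 26.1 and 25.1 CPM (-0.64 ± 0.10, edgeR adjusted p = 0.00697). Against control the calls of PBXIP1, PLAU and SNHG32 were kept without each library in turn. Those of NDRG1 and GPRC5A were lost without control replicate 2 and without any one TGF-β or TGF-β + uridine library (edgeR adjusted p up to 0.119 and 0.182).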

How the data were processed

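RNA of 9 LX-2 libraries was measured, 3 in each of the control, TGF-β and TGF-β + uridine groups, which were assigned from the sample labels. The authors deposited counts of reads per gene symbol, whole numbers that were not normalized, and FPKM values of the same genes, which held the same counts scaled by library total and 1 length per gene. The submitters' processing notes name fastp, HISAT2, HTSeq, R 3.2.0 and GRCh38.p13, and strand and annotation are not given in the sources used here. All columns of the 2 tables were used, and those of the TGF-β group enter the model for the spread and as values set beside the comparison.

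Counts were filtered with filterByExpr and TMM-normalized, and fitted in 1 model of condition over all 9 libraries with edgeR 4.0.16 (R 4.3.3, glmQLFit and glmQLFTest, two-sided). Adjustment of p-values followed Benjamini and Hochberg, over the 13384 genes tested. Values of single libraries are TMM-normalized CPM, and ± is the standard error of the log2 fold change unless stated as SD. Depth was 40539751 to 41467124 reads per library, and 3 counts (0.0629 to 0.0889 CPM) was the limit for a count of 0. Genes were named by a rule: the 12 largest changes in each direction (adjusted p under 0.05, mean log2 CPM of at least 1, groups not overlapping), the genes that the study measured, the 4 called members with the smallest p in each of 23 gene lists (where under 4 were called, up to 2 tested members), 14 defining genes of activation, and the genes called against the TGF-β group. Some genes that the rule names are not reported here, and counts over lists include them. The members and lists were chosen with earlier results of these data known, and no set test was run. Same-numbered control and TGF-β + uridine libraries correlated at -0.18, -0.21 and 0.56, so the numbers were not taken as pairs. The tests were run on simulated counts with 1 mean profile and 1 common spread. These held no outlying library and no slope on GC content, so the check does not cover such features.

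The alternatives were DESeq2 1.42.0, RLE, upper-quartile and no normalization factors, no filter, at least 10 counts in every library, only the 2 groups compared, a replicate block, a covariate for each library's slope on GC content (GENCODE v29, 12319 genes matched by symbol), both together, limma 3.58.1 on log2(FPKM + 1) and log2(FPKM + 0.1) where the mean FPKM was 0.5 or more, stricter thresholds, and each library left out. Promoters are from RefSeq (GRCh38.p14); those of TAGLN, MYOCD and OASL were not used here.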

Additional observations from a re-analysis of the deposited data

How the results depend on the processing

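The counts of genes called in TGF-β + uridine against control moved most with the GC covariate, which gave 2380 higher and 1782 lower, and next without control replicate 1. Leaving out each library in turn gave 184 to 1297 genes higher and 115 to 1116 lower, with the highest counts without control replicate 1. Against 387 higher and 327 lower, DESeq2 called 639 and 654, library totals alone 822 and 569, limma on log2(FPKM + 1) 855 and 566, limma on log2(FPKM + 0.1) 845 and 557, the replicate block with the GC covariate 2143 and 1613, and only the 2 groups compared 149 and 73. Thresholds of an absolute log2 fold change of 1 gave 247 and 175, and of an adjusted p of 0.01 gave 186 and 108. The replicate block alone gave 256 and 181, and the numbers did not pair the samples, as their correlations were -0.18, -0.21 and 0.56 (up to 0.63 for different numbers). RLE (346 and 312), upper-quartile (470 and 382), no filter (307 and 242) and at least 10 counts (357 and 326) stayed within a factor of 1.5. For TGF-β + uridine against TGF-β, 6 genes were called in all, beside 239 with DESeq2, 218 with library totals, 317 with only the 2 groups compared, 385 and 378 with limma, 2554 with the GC covariate, 2072 with that covariate and the replicate block, and 0 with the block alone. The cause of these differences was not tested.

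Of 113 named genes tested, 95 were called, 61 kept the call in every alternative and 70 without each library. No called gene changed direction. Direction turned for 4 genes that were not called: FASN (5.0845e-05 with library totals, 0.00519 with the replicate block and GC covariate, 0.00508 with the GC covariate, 0.00054337 and 0.00055159 with limma, -0.17 to 0.12 with a library left out), PPARG (-0.088 to 0.13 with a library left out, and -0.050 without TGF-β + uridine replicate 2), TIMP1 (-0.16 to 0.31 with a library left out, -0.044 without control replicate 2 and -0.12 without TGF-β + uridine replicate 2) and UPP1 (-0.48 to 0.086 with a library left out).

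With library totals 59.1% of the calls were higher, with only the 2 groups compared 67.1%, and without control replicate 3 45.8%, against 54.2%. Depth limits genes such as CNN1, COL3A1 and MYOCD, which had few reads.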
